A study of Mus musculus with 6 samples.

Results

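The BCL2 family of apoptosis regulators was examined in cultured mouse hepatocytes under hypoxia and normoxia, for 10 genes that were chosen by name (*Bcl2*, *Bcl2l1*, *Mcl1*, *Bax*, *Bak1*, *Bid*, *Bad*, *Bcl2l11*, *Pmaip1* and *Bbc3*). Of these 10 genes, 8 had a row with their symbol alone among the 13725 named genes of the expression table, each with 1 row. *Bax* and *Bbc3* were the symbol of no row, alone or among several, and were not analysed here.

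Primary hepatocytes were isolated by collagenase perfusion from the livers of 3 wildtype C57BL/6 mice aged 8 to 12 weeks (male C57BL/6N mice in the methods). Cells of each mouse were kept under normoxia (19.5% O2) and under hypoxia (1% O2), so that 3 normoxic and 3 hypoxic samples gave 6 arrays of the Affymetrix Mouse Gene 2.0 ST type. Both groups were cultured on collagen in Williams E medium, which according to the methods held neither serum nor dexamethasone during the exposure. Exposure lasted 72 h by the labels. The methods name a shorter time for the arrays, and which of them applies is unknown.

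Proteins of this family decide at the outer mitochondrial membrane whether a cell undergoes apoptosis. The pro-survival proteins BCL2, BCL-XL (encoded by *Bcl2l1*) and MCL1 hold back the effectors BAX and BAK (*Bak1*), which otherwise form pores and release cytochrome c. BH3-only proteins such as BID, BAD, BIM (*Bcl2l11*), NOXA (*Pmaip1*) and PUMA (*Bbc3*) sense stress and block the pro-survival proteins or activate the effectors. In mouse liver, hepatocytes are known to depend on BCL-XL and MCL1, and loss of either from hepatocytes leads to spontaneous apoptosis.

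Shown first are the promoter windows of the 4 genes of the 10 that fell under hypoxia, and that of *Bcl2l11*. Of the BH3-only genes measured among the 10, *Bcl2l11* had the lowest difference. The windows are taken from RefSeq (GRCm38.p6) and run from 250 bases before to 50 bases after a transcription start. For *Bcl2l1* and *Bcl2l11*, which have several starts, the start farthest upstream is shown. Capitals mark the core of the HIF response element (ACGTG or GCGTG), the half-site of the cAMP response element (TGACG) and a core of the FOXO site (GTAAACA), each searched on both strands.
*Bcl2* (chr1:106714241-106714540, minus strand): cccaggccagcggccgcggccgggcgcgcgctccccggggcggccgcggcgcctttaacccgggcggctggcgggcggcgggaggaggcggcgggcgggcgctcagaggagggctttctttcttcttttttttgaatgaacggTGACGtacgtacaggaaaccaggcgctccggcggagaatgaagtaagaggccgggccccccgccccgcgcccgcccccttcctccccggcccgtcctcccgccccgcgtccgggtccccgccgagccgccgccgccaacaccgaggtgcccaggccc
*Mcl1* (chr3:95658471-95658770, plus strand): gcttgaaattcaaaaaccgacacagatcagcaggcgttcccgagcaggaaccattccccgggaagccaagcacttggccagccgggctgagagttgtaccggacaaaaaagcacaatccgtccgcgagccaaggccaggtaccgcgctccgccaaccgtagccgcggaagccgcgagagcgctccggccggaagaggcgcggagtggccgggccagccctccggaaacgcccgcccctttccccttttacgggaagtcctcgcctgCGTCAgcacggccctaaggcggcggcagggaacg
*Bcl2l1* (chr2:152831679-152831978, minus strand): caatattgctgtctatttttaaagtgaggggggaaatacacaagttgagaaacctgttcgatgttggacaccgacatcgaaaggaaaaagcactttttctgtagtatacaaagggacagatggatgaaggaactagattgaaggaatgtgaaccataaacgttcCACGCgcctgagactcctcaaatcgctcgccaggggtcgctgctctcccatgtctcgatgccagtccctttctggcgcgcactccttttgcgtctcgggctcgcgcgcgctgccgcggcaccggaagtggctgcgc
*Bak1* (chr17:27028578-27028877, minus strand): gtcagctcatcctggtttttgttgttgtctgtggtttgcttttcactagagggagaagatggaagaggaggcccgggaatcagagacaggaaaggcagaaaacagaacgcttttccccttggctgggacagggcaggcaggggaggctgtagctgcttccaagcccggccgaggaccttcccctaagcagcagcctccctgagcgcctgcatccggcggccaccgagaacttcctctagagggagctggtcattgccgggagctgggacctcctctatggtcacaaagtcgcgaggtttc
*Bcl2l11* (chr2:128125788-128126087, plus strand): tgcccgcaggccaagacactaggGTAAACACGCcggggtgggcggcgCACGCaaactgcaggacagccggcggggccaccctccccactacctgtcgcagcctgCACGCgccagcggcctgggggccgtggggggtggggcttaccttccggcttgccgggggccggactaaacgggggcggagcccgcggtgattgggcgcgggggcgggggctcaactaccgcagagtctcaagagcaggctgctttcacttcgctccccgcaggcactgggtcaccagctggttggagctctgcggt

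A HIF core was found in none of the printed windows of *Bcl2*, *Mcl1* and *Bak1*. The *Bcl2l1* window held 1, at 86 bases before the start, and that of *Bcl2l11* held 3, of which the one at 222 bases before the start overlaps the FOXO core at 227 bases. The cAMP half-site stood 107 bases before the start of *Bcl2* and 16 bases after that of *Mcl1*. Of all 32851 windows of this length, 43.8% hold a HIF core, 20.8% a cAMP half-site and 3.65% the FOXO core. Of the 15 windows searched for the members, 9 held a HIF core, 3 a cAMP half-site and 2 the FOXO core. Of the 9 members with a window in this search, 5 had a HIF core in at least 1 window (*Bcl2l1*, *Bax*, *Bad*, *Bcl2l11* and *Bbc3*), 3 had a cAMP half-site (*Bcl2*, *Mcl1* and *Bbc3*) and 2 had the FOXO core (*Bcl2l11* and *Bbc3*). For the members, though not for all 32851 windows, a chromosome was left out of the search. No window of *Pmaip1* was searched, which does not mean that it has none. These matches describe the letters of the windows and are no measure of binding.

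All 3 pro-survival genes among the 10 and the effector gene *Bak1* fell under hypoxia, whereas none of the 4 measured BH3-only members passed the test. Thus 4 of the 8 measured members were lower, none was higher and 4 did not pass (adjusted p under 0.05 from limma over all 15443 rows). Outside the 10 genes, the BH3-only gene *Bik* was lower as well (log2 difference -1.64, adjusted p = 0.00188 from limma). *Bmf*, also BH3-only and outside the 10, did not pass (-0.69, adjusted p = 0.0939). Nor did *Bcl2l2*, a pro-survival gene outside the 10 (log2 difference 0.24, adjusted p = 0.197 from limma). All hypoxic arrays of *Bcl2l2* lay above all its normoxic arrays, as in 22.4% of all rows. *Bcl2l2* was named after its value was seen. Over all rows, 23.9% were lower and 15.5% were higher at an adjusted p under 0.05, 39.5% in all. When the mouse was entered as a block, the same 4 members were lower and none was higher, against 20.1% of rows lower and 13.3% higher (33.3% in all). When mouse 2 was left out of that paired fit, which leaves 1 residual degree of freedom, only *Bcl2* was called (adjusted p = 0.0439), with 0.0506 for *Mcl1*, 0.0787 for *Bak1* and 0.0992 for *Bcl2l1*. The median log2 difference between hypoxia and normoxia was -0.65 over the 8 members and -0.05 over all rows. Expression values are RMA values on the log2 scale, on which a difference of 1 is a doubling, and they are relative to the other transcripts of the same array. In such bulk samples, fewer cells of a type and less RNA per cell cannot be told apart.

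**Figure D1:**
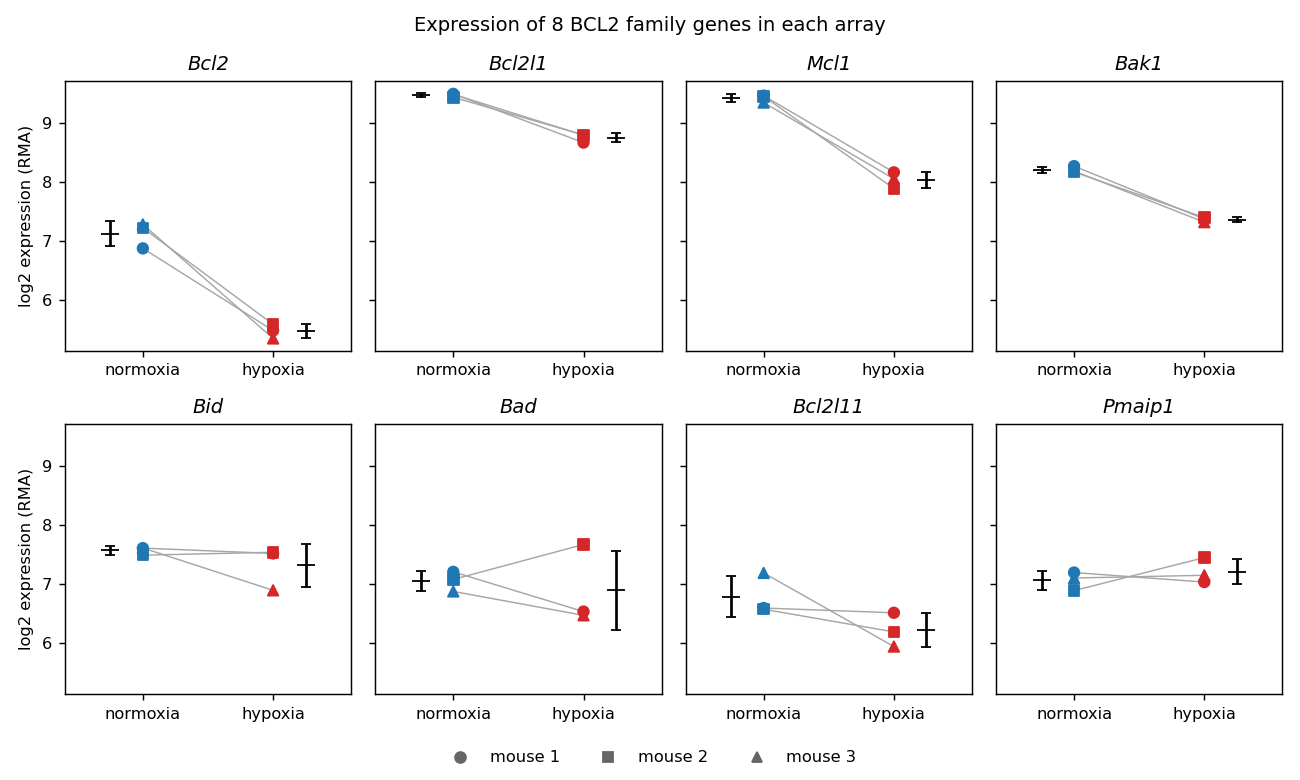
Log2 expression (RMA) of the 8 measured BCL2 family genes in each of the 6 arrays, with a panel for each gene, normoxia on the left and hypoxia on the right of each panel. Symbols stand for the mice, lines join the arrays of a mouse, and the black bars beside the points are the mean ± SD of the 3 arrays. The groups lie apart for *Bcl2*, *Bcl2l1*, *Mcl1*, *Bak1* and, narrowly, *Bcl2l11*, and overlap for *Bid*, *Bad* and *Pmaip1*.

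*Bcl2*, which encodes the founding pro-survival protein of the family, was at 6.87, 7.22 and 7.27 on the log2 scale in the normoxic arrays of mouse 1, 2 and 3 and at 5.47, 5.58 and 5.34 in the hypoxic arrays. Every hypoxic array lay below every normoxic array. Its log2 difference between hypoxia and normoxia was -1.65 (standard error 0.16, adjusted p = 0.000741 from limma), so that normoxic expression was 3.15 times hypoxic expression. Of all rows, 1.79% fell by as much or more. In the hypoxic arrays only 1.22% to 1.93% of rows were dimmer than that of *Bcl2*, against 24.6% to 41.7% in the normoxic arrays. The hypoxic values are thus near the bottom of the scale, where the size of a fall is uncertain.

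*Mcl1*, which encodes a short-lived pro-survival protein that binds BAK, BIM and NOXA, was at 9.46, 9.45 and 9.34 in normoxic hepatocytes of mouse 1, 2 and 3. Under hypoxia it was at 8.16, 7.88 and 8.05, so that the groups were more than a whole log2 unit apart. This gave a log2 difference of -1.39 (adjusted p = 0.000753 from limma, standard error 0.13), or 2.61 times higher expression under normoxia. Within single mice the fall was 1.30, 1.56 and 1.29 on the log2 scale. Only 3.18% of rows fell by as much or more, and from 63.8% to 71.0% of rows were dimmer in the hypoxic arrays, so that its lower values do not lie at the bottom of the scale.

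*Bcl2l1*, whose longer transcript encodes BCL-XL and whose shorter transcript encodes a pro-apoptotic form, fell by less. Its values were 9.49, 9.43 and 9.48 under normoxia and 8.66, 8.79 and 8.79 under hypoxia in mouse 1, 2 and 3. Again the groups did not overlap, and the SD was 0.03 under normoxia and 0.07 under hypoxia (n = 3 each). The log2 difference was -0.72 (standard error 0.12, adjusted p = 0.00433 from limma), or 1.65 times higher expression under normoxia, and 16.4% of rows fell by as much or more. Its call was lost when mouse 2 was left out (log2 difference -0.76, adjusted p = 0.0554). The row combines the probes of the gene, so that both transcript forms cannot be told apart.

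*Bak1*, which encodes the effector BAK, was at 8.26, 8.16 and 8.18 in the normoxic arrays and at 7.36, 7.39 and 7.31 in the hypoxic arrays of mouse 1, 2 and 3. The arrays of each condition lay close together and the conditions lay apart. For *Bak1* the log2 difference was -0.85 (standard error 0.12, adjusted p = 0.00247 from limma), or 1.80 times higher expression under normoxia, and 12.3% of rows fell by as much or more. Set side by side, the 95% confidence interval of the log2 difference ran from -2.03 to -1.28 for *Bcl2*, from -1.70 to -1.07 for *Mcl1*, from -1.13 to -0.56 for *Bak1* and from -1.01 to -0.43 for *Bcl2l1*. The intervals of *Bcl2* and *Mcl1* overlap with each other, as do those of *Bak1* and *Bcl2l1*. Whether the falls of these genes differ was not tested.

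*Bcl2l11*, which encodes BIM, a strong activator of apoptosis, was at 6.59, 6.57 and 7.18 under normoxia and at 6.51, 6.18 and 5.94 under hypoxia in mouse 1, 2 and 3. All hypoxic values were below all normoxic values, but by a gap that was small beside the spread of the arrays. Such a lack of overlap was seen for 5 of the 8 members, all lower, and for 31.9% of all rows in the lower and 22.4% in the higher direction (54.3% in all). The log2 difference was -0.57 (95% confidence interval from -1.10 to -0.04, adjusted p = 0.0824 from limma). By mouse, the difference was -0.08, -0.38 and -1.25, so that most of the mean came from mouse 3. Without the hypoxic array of mouse 1 the adjusted p was 0.0395, while without mouse 3 the log2 difference was -0.23 (adjusted p = 0.412).

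*Bid*, which encodes the protein that links death receptors to mitochondria after cleavage by caspase 8, was at 7.60, 7.48 and 7.61 under normoxia. Under hypoxia it was at 7.51 and 7.53 in mouse 1 and 2 and at 6.89 in mouse 3, which stood apart from the other arrays. On average the log2 difference was -0.25 (95% confidence interval from -0.72 to 0.21, adjusted p = 0.342 from limma), and it was -0.04 without the hypoxic array of mouse 3.

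*Bad*, which encodes a BH3-only protein that is held in check by phosphorylation and 14-3-3 proteins, had the widest spread of the members. It was at 7.20, 7.07 and 6.87 under normoxia and at 6.53, 7.67 and 6.46 under hypoxia in mouse 1, 2 and 3. The hypoxic array of mouse 2 was the highest of the 6 arrays, and the other hypoxic arrays were the lowest. The SD of the hypoxic arrays was 0.68 (n = 3), which was reached by 6.37% of rows, while the median SD of a row under hypoxia was 0.24. The log2 difference was -0.16 (95% confidence interval from -0.91 to 0.59, adjusted p = 0.715 from limma). Without the hypoxic array of mouse 2 it was -0.55 (adjusted p = 0.0457), and without mouse 2 altogether it was -0.54 (adjusted p = 0.138). It turned to 0.094 without mouse 1, so that no direction can be given for *Bad*.

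*Pmaip1*, which encodes NOXA, the partner that targets MCL1, was at 7.19, 6.88 and 7.10 under normoxia and at 7.03, 7.44 and 7.14 under hypoxia in mouse 1, 2 and 3. Here the groups overlapped, and the gene was higher under hypoxia in 2 of 3 mice. The log2 difference was 0.15 (95% confidence interval from -0.23 to 0.53, adjusted p = 0.50 from limma), and it was -0.058 without mouse 2. The intervals of *Bid*, *Bad* and *Pmaip1* are wide, so that these genes are not shown to be unaffected. Whether the BH3-only genes respond differently from the pro-survival genes was not tested.

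Among 9 other measured genes of the family, of 16 listed, 3 were higher under hypoxia, 1 was lower and 5 did not pass. Their median log2 difference was 0.24. Of all rows, 15.5% were higher and 23.9% lower. The mitophagy receptor gene *Bnip3*, a classical HIF target with a BH3-like motif, was at 7.03, 7.19 and 7.04 under normoxia and at 9.55, 9.58 and 9.64 under hypoxia. This is a log2 difference of 2.50 (standard error 0.12, adjusted p = 0.000206 from limma), while its relative *Bnip3l* had one of 0.40 (standard error 0.13, adjusted p = 0.0462). The call for *Bnip3l* did not hold in the paired fit (adjusted p = 0.0995) or when any 1 of the 6 arrays or any mouse was left out (adjusted p of up to 0.234), nor after a further quantile normalization (0.0809). *Bcl2l14* rose from 4.78, 5.56 and 4.18 to 7.41, 7.41 and 7.12. Its log2 difference was 2.47 (standard error 0.33, adjusted p = 0.00197 from limma), and its normoxic values lay among the lowest 1.02% of rows, where the size of a rise is uncertain.

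The BH3-only gene *Bik* fell from 7.55, 6.95 and 7.23 to 5.28, 5.78 and 5.77, a log2 difference of -1.64 (adjusted p = 0.00188 from limma, standard error 0.21). Its hypoxic values were again among the dimmest, with 1.25% to 3.22% of rows below them. *Bmf*, another BH3-only gene, had a log2 difference of -0.69 (95% confidence interval from -1.37 to -0.02, adjusted p = 0.0939), and *Bok*, a relative of the effectors, had one of 0.36 (from 0.03 to 0.70, adjusted p = 0.0799). *Bcl2l12* had one of -1.05 (from -2.02 to -0.08, adjusted p = 0.0798). Its hypoxic value in mouse 1 was 7.34, equal to the normoxic level, against 5.97 and 5.59 in mouse 2 and 3. Without the hypoxic array of mouse 1, *Bmf* and *Bcl2l12* were called (log2 difference -0.96 and -1.57, adjusted p = 0.0167 and 0.00136), as they were with array weights (0.0248 and 0.0134). *Bcl2l12* was also called without mouse 1 (0.00798) and with the block, trend and robust options (0.041), and *Bok* with array weights (0.0476) or centring on the brighter rows (0.0443). *Bmf*, *Bok* and *Bcl2l12* fall outside the rule for named genes and were chosen after their values were seen.

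**Figure D2:**
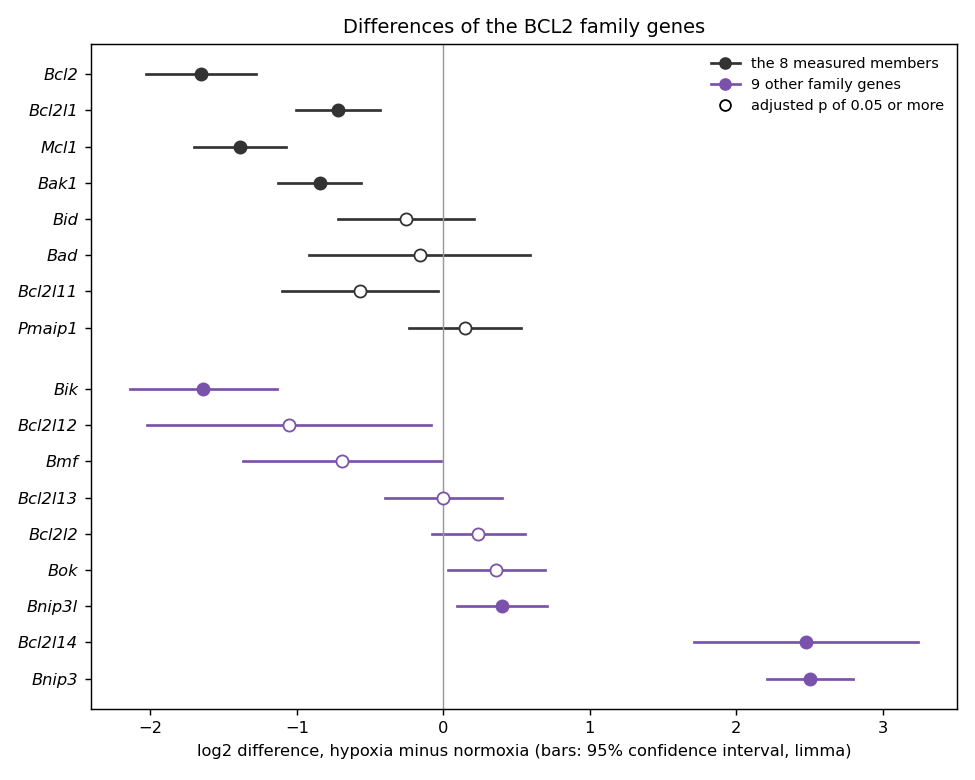
Log2 difference between hypoxia and normoxia for the 8 measured members (black) and 9 other genes of the family (purple), with 95% confidence intervals from limma. Filled points had an adjusted p under 0.05. The filled points of the members all lie below 0, from -1.65 to -0.72, while *Bnip3* and *Bcl2l14* lie at 2.50 and 2.47.

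Downstream of the mitochondria, 11 of 15 measured genes of the apoptosome, the caspases and their inhibitors were lower under hypoxia, 2 were higher and 2 did not pass, with a median log2 difference of -0.60. With the mouse as a block, 10 were lower and 2 were higher. The shares of all rows were 23.9% lower and 15.5% higher, and 20.1% and 13.3% with the block. *Apaf1*, the scaffold of the apoptosome, fell from 8.01, 7.83 and 7.71 to 6.81, 6.24 and 6.54 (log2 difference -1.32, standard error 0.18, adjusted p = 0.00215 from limma). The initiator caspase gene *Casp2* had a log2 difference of -1.52 (standard error 0.17, adjusted p = 0.00117). *Casp9*, which encodes the caspase that APAF1 activates, had one of -0.50 (standard error 0.13, adjusted p = 0.0189), a call that needed each normoxic array and each mouse (adjusted p of up to 0.129 when any of them was omitted) and that was also lost with an intensity trend in eBayes (0.0676, and 0.122 with the block, trend and robust options together). Genes of the inhibitor of apoptosis family fell as well. The log2 difference was -1.86 (standard error 0.23, adjusted p = 0.00155) for *Birc2*, which encodes cIAP1. It was -2.31 (standard error 0.28, adjusted p = 0.00145) for *Birc5*, which encodes survivin, a protein of dividing cells. The hypoxic values of *Birc5* were near the bottom of the scale, with 0.227% to 2.88% of rows below them, so that the size of its fall is uncertain. Those of *Birc2* had 1.86% to 16.8% of rows below them, so that the size of its fall is uncertain too. The 2 higher genes encode mitochondrial proteins, namely cytochrome c (*Cycs*, from 9.15, 9.28 and 9.18 to 9.98, 10.10 and 10.09, log2 difference 0.86, standard error 0.12, adjusted p = 0.00256) and endonuclease G (*Endog*, log2 difference 1.15, standard error 0.15, adjusted p = 0.00208). *Apaf1*, *Casp9* and *Cycs* were chosen after their values were seen.

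Of 11 measured genes of the death receptor pathway, 3 were lower, 1 was higher and 7 did not pass. Their median log2 difference was -0.37. Of all rows, 23.9% were lower and 15.5% higher. *Casp8*, whose product cleaves BID, fell from a mean of 10.07 ± 0.07 to 9.31 ± 0.22 (SD, n = 3; log2 difference -0.76, standard error 0.15, adjusted p = 0.00829 from limma). The adaptor gene *Traf2* had a log2 difference of -0.76 (standard error 0.16, adjusted p = 0.00892) and the receptor gene *Fas* one of -0.75 (standard error 0.22, adjusted p = 0.0299). The Fas ligand gene *Fasl* was the higher one, with a log2 difference of 0.81 (standard error 0.25, adjusted p = 0.0386). The calls of *Casp8* and *Traf2* were lost without mouse 2 and without mouse 3 (adjusted p of up to 0.0966 and 0.0887). That of *Fas* was also lost without any 1 normoxic array or the hypoxic array of mouse 3 (up to 0.119). That of *Fasl* did not survive omission of any mouse, of normoxic array 1 or 2, or of hypoxic array 1 or 3 (up to 0.139), and was lost with array weights (0.0541).

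The genes of p53 and its targets outside the family, 15 of which were measured, were lower in 8 cases and higher in 1, and 6 did not pass (median log2 difference -0.53). With the mouse as a block, 6 were lower and 1 was higher. The shares of all rows were 23.9% lower and 15.5% higher, and 20.1% and 13.3% with the block. *Trp53inp1*, a p53-induced gene, fell from 10.58, 10.53 and 10.97 to 9.16, 8.80 and 8.96 (log2 difference -1.72, standard error 0.17, adjusted p = 0.000873 from limma). *Mdm2*, which encodes the ubiquitin ligase of p53, had a log2 difference of -0.93 (standard error 0.17, adjusted p = 0.00586), the receptor gene *Eda2r* one of -1.06 (standard error 0.16, adjusted p = 0.00316) and the DNA polymerase gene *Polk* one of -1.03 (standard error 0.16, adjusted p = 0.00339). The stress gene *Gadd45a* was the higher one, with 0.86 (standard error 0.18, adjusted p = 0.00966), and was named after its value was seen. Without mouse 2, the adjusted p was 0.0648 for *Mdm2*, 0.0519 for *Eda2r* and 0.0736 for *Gadd45a*, and *Mdm2* was not called without mouse 3 either. *Trp53* itself was the symbol of no row, alone or among several.

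Of 19 measured direct regulators and mitochondrial partners of the members, 7 were lower, 3 were higher and 9 did not pass, with a median log2 difference of -0.33. With the mouse as a block, 5 were lower and 1 was higher. The shares of all rows were 23.9% lower and 15.5% higher, and 20.1% and 13.3% with the block. *Foxo1*, which encodes a transcription factor known to drive *Bcl2l11* and *Bbc3*, fell from 8.85, 8.92 and 8.95 to 7.92, 7.88 and 8.06 (log2 difference -0.95, standard error 0.13, adjusted p = 0.00194 from limma), and *Foxo3* had a log2 difference of -0.62 (standard error 0.14, adjusted p = 0.0123). These *Foxo1* values are of the brighter of its 2 rows, and the mean of both rows gave a smaller fall (-0.76, adjusted p = 0.00647 from limma). Among the proteins that set the half-life of MCL1, the deubiquitinase gene *Usp9x* had a log2 difference of -1.09 (standard error 0.17, adjusted p = 0.00325), and the ligase genes *Fbxw7* and *Huwe1* had differences of -0.98 (standard error 0.15, adjusted p = 0.00295) and -0.73 (standard error 0.15, adjusted p = 0.00851). The channel gene *Vdac1* rose from 9.23, 9.54 and 9.67 to 10.65, 10.34 and 10.85 (log2 difference 1.13, standard error 0.19, adjusted p = 0.00408). *Vdac2*, whose product binds BAK, had 0.39 (standard error 0.13, adjusted p = 0.0495), and *Bag1*, whose product binds BCL2, had 0.48 (standard error 0.14, adjusted p = 0.0294). The last 2 calls did not hold with the block (adjusted p = 0.087 and 0.069). That of *Vdac2* was lost without any 1 array or mouse (up to 0.217). It was also lost after a further quantile normalization (0.0941), with robust eBayes (0.0511) and over rows with 1 symbol alone (0.0502). The call of *Bag1* was lost without any 1 array or mouse (up to 0.175) except mouse 1 or its hypoxic array. The *Bag1* call held after the further quantile normalization, with robust eBayes and over rows with 1 symbol alone. *Foxo3* and *Huwe1* were not called without mouse 2 (adjusted p = 0.123 and 0.0947) or mouse 3, nor *Foxo3* without the normoxic array of mouse 2. *Foxo3*, *Huwe1*, *Vdac2* and *Bag1* were named after their values were seen.

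**Figure D3:**
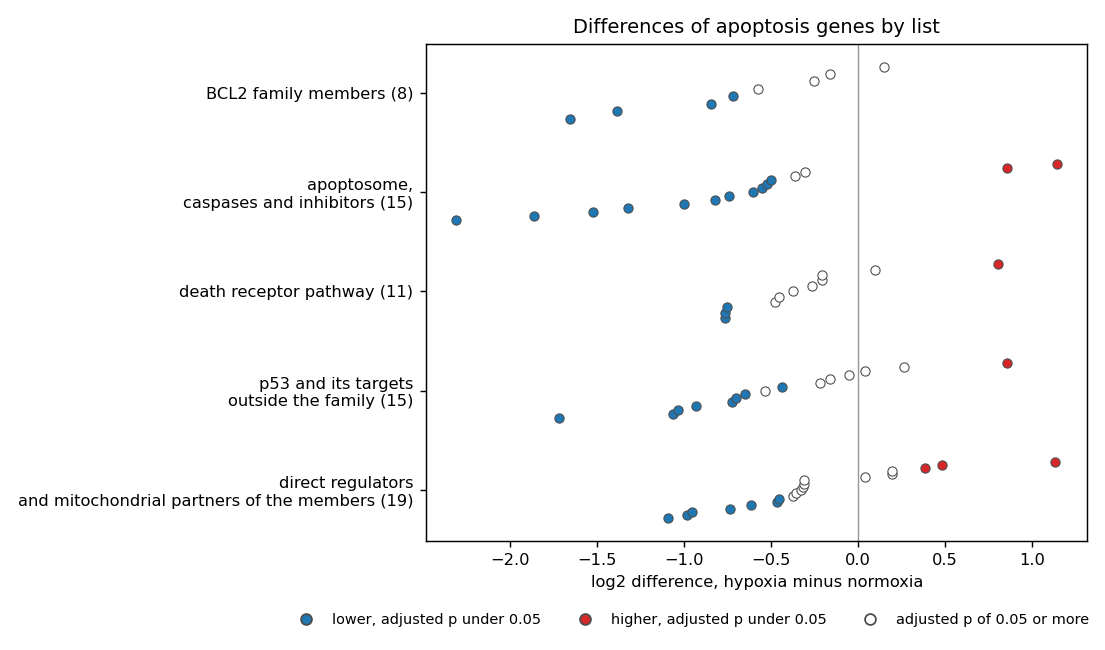
Log2 difference between hypoxia and normoxia (horizontal axis) of each measured gene, as 1 point, for the BCL2 family members and 4 lists of apoptosis genes, with the number of genes in brackets. Blue points were lower and red points higher at an adjusted p under 0.05, and white points did not pass. Of the members 4 are blue and none is red, and of the 15 genes of the apoptosome list 11 are blue and 2 are red.

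The arrays responded to hypoxia as a whole. Of 9 known hypoxia genes, 8 were higher, with log2 differences of up to 3.38 (*Adm*), and *Car9* did not pass. *Car9* has 2 rows, of which the brighter had a log2 difference of 0.04 (adjusted p = 0.876, and -0.15 without mouse 2) and the other one of 1.22 (adjusted p = 0.0616). Of 8 measured hepatocyte markers, 3 were higher (*Asgr1*, *Tat* and *Apoa1*, with log2 differences of 2.40, 0.88 and 0.72), 1 was lower (*Hnf4a*, -1.03, adjusted p = 0.0016) and 4 did not pass, with a median of 0.27 and a summed level of 14.89 to 14.99 under normoxia and 14.96 to 15.02 under hypoxia. *Alb* was between 13.25 and 13.49 in all 6 arrays, whereas *Asgr1* was dim under normoxia (6.56, 5.90 and 6.17). The call of *Apoa1* was lost without mouse 2 or mouse 3 (adjusted p of up to 0.0601), and that of *Tat* without mouse 1 or 2 or any array but the normoxic one of mouse 3 (up to 0.149). *Car9* and these hepatocyte markers were named after their values were seen. Of 9 measured markers of sinusoidal endothelium, 6 were higher and 2 lower, and their summed level on the log2 scale was 10.53 to 10.72 under normoxia and 11.09 to 11.22 under hypoxia. Of 6 Kupffer cell and macrophage markers 2 were higher and 1 lower (summed level 10.27 to 10.51 and 11.23 to 11.25), of 4 lymphocyte markers 2 were higher (9.89 to 9.98 and 10.13 to 10.66), of 5 cholangiocyte markers 1 was higher and 2 were lower (11.43 to 12.02 and 10.26 to 10.67), and of 9 stellate cell markers 1 was higher and 1 lower (10.24 to 10.46 and 10.19 to 10.67). With the block, 1 endothelial marker was lower in place of 2, and 1 Kupffer cell marker was higher in place of 2. The 1 higher cholangiocyte marker was then a different gene. Of all rows, 23.9% were lower and 15.5% higher with the condition alone, and 20.1% and 13.3% with the block. The part of these cell types in the differences of the BCL2 family was not tested. No value in the table is 0, and there are no detection calls.

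**Figure D4:**
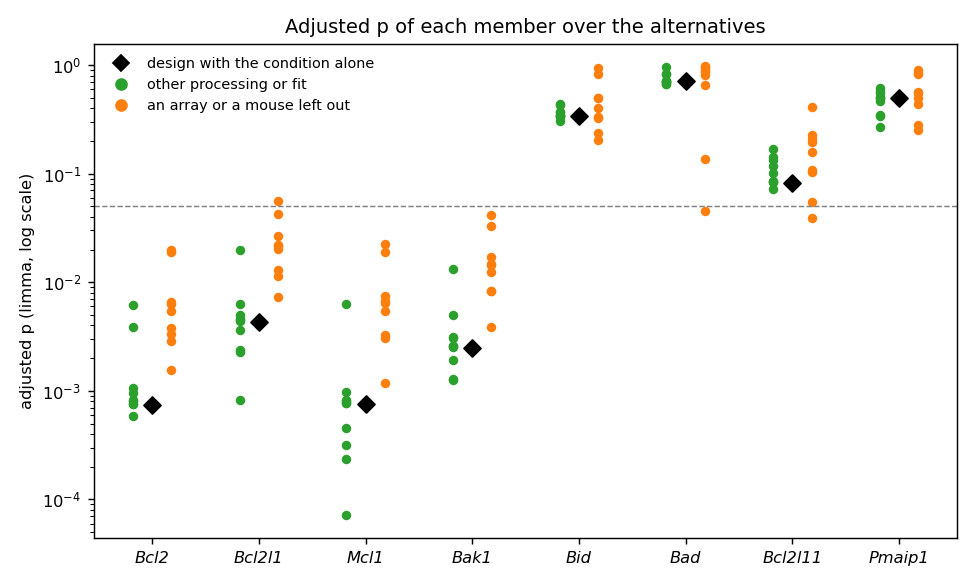
Adjusted p from limma (vertical axis, log scale) of each of the 8 measured members in the design with the condition alone (black diamonds), in other processing or fits (green) and with an array or a mouse left out (orange), and the threshold of 0.05 as a dashed line. *Bcl2*, *Mcl1* and *Bak1* lie below the line throughout, with a highest adjusted p of 0.0199, 0.0225 and 0.0415, and *Bcl2l1* crosses it once, at 0.0554. The paired fit without mouse 2 is not plotted.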

How the data were processed

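RNA of hepatocytes from 3 mice, each under 2 conditions, was hybridized to 6 arrays (Affymetrix Mouse Gene 2.0 ST). The table deposited by the authors holds log2 values, which had been background-corrected, quantile-normalized and summarized with the RMA procedure of the oligo package. They were analysed without further transformation. How the 15443 rows were selected is not given in the sources used here. RMA hides an overall change in RNA amount, and the small number of arrays limits the precision.

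Rows were named through the supplied platform annotation and current RefSeq symbols, and the row of highest mean stood for a gene with several rows. Hypoxia was set against normoxia in limma (version 3.58.1, R 4.3.3) by lmFit and eBayes on condition alone, since the methods mention no block. All rows were tested together, and calls were made at a Benjamini-Hochberg adjusted p under 0.05. By the labels each mouse gave 1 array per condition, which pairs the arrays, and the paired fit (mouse as block) was an alternative. Residuals of the 2 arrays of a mouse, taken from the group means, had correlations of -0.11, 0.018 and 0.10. Filters, normalization, eBayes options, array weights, thresholds and omission of arrays or mice were also varied. The scripts were tested on simulated data.

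Members and gene lists were chosen with earlier results of these data known. The text names all members, the 4 genes (or fewer) of smallest p in each other list, and the exceptions that it marks.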

Additional observations from a re-analysis of the deposited data

How the results depend on the processing

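The call of *Bcl2* held in each alternative in which its row was tested. Those of *Mcl1* and *Bak1* were lost only in the paired fit without mouse 2, and that of *Bcl2l1* there and without mouse 2 alone. The number of lower members was 4 in the reported fit and with the mouse as a block, 3 without the dimmest rows, where *Bcl2* and *Bcl2l11* were not tested, and 5 at a threshold of 0.1, where *Bcl2l11* was added. It was 3 to 5 when an array or a mouse was left out, and 1 in the paired fit without mouse 2, which was chosen after seeing the data. None of these gave a higher member. Among the named genes, the block alone ended the calls of *Bnip3l*, *Vdac2* and *Bag1* and no other call.

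Over all rows, 2400 were higher and 3698 lower. These numbers were 2047 and 3099 with the block, 1126 and 1944 at a threshold of 0.01, 390 and 372 in the paired fit without mouse 2, and ran from 852 to 3114 and from 1306 to 4131 when an array or a mouse was left out, lowest without mouse 2. The sign turned for *Bad* with array weights (0.026) and when arrays or mice were left out (-0.55 to 0.094), for *Pmaip1* (-0.058 to 0.30) and for the brighter row of *Car9* (-0.15 to 0.24), the last 2 also in the paired fit without mouse 2 (-0.058 and -0.15). The mean of both *Car9* rows gave 0.63 (adjusted p = 0.113). The cause was not tested.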
